A study of Mus musculus with 24 samples.

Results

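The genes described here are 9 transcription factors of the enteroendocrine lineage (*Neurog3*, *Neurod1*, *Insm1*, *Nkx2-2*, *Pax4*, *Rfx6*, *Pax6*, *Isl1* and *Etv1*), chosen by name from the 53465 genes of the count table. They were followed in Guca2a-Venus mice, a line from a single founder that carries the yellow fluorescent protein Venus in place of the *Guca2a* coding sequence on a bacterial artificial chromosome, so that the guanylin promoter marks the cells. Epithelium of the duodenum, jejunum, ileum and colon was digested to single cells. Cells of high fluorescence (Venus-positive, labelled GFP positive) and non-fluorescent (Venus-negative) cells were sorted from it. Dead cells, debris and CD45-positive immune cells were excluded. The 8 groups held 3 libraries each, 24 in all, and all mice carried the transgene and had standard chow and water freely. No age or treatment was given in the sources used here. The comparison asked which transcripts set cells of high fluorescence apart from non-fluorescent epithelial cells. The series states that 3 mice were used, but the labels do not say which library came from which mouse. Replicate numbers here follow the order of the samples and only name a library, and p values measure the spread between the libraries of a group.

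Enteroendocrine cells are the hormone-secreting cells of the gut lining and arise from crypt progenitors that escape Notch signalling. *Neurog3* is switched on briefly in those progenitors and commits them to the endocrine fate. Its product activates *Neurod1*, *Insm1*, *Nkx2-2*, *Pax4* and *Rfx6*, and factors such as *Pax6* and *Isl1* act later, in cells that already make hormones. *Neurog3* and *Neurod1* encode basic helix-loop-helix proteins, which bind the E-box, a short motif with the letters CANNTG.

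Of the 9 genes, 7 had an entry in the RefSeq promoter table (build GRCm38.p6), with a second start site for *Pax6* and *Etv1*. The 250 bases before the start site held an E-box in *Neurog3*, *Neurod1*, *Isl1* and *Nkx2-2* and at the second site of *Pax6* and *Etv1*, and held none in *Rfx6* or at the first site of *Pax6* and *Etv1*. Both strands were covered, since the motif reads the same on each. Of the 32851 promoters of that length in the table, 66.2% held at least 1 such match, so a match is common and is given only as a description. The form CAGCTG, found in *Neurog3* and *Isl1*, was in 13.0% of all promoters, and CAGATG or CATCTG, found in *Nkx2-2* and at the second site of *Etv1*, in 14.4%. The homeodomain core TAATTA, in 4.84% of all promoters, was in none of those of the 7 genes. The sequences below are given for the first factor of the cascade and 3 genes downstream of it, with each E-box in capitals and restricted to bases outside annotated exons. *Neurog3* is read on the forward strand from chr10:62132840-62133089, *Neurod1* on the reverse strand from chr2:79456786-79456886, *Nkx2-2* on the reverse strand from chr2:147186456-147186652 and *Isl1* on the reverse strand from chr13:116309690-116309938. The *Neurog3* match lies at position -165 from the start site, the *Neurod1* match at position -242 and the *Isl1* match at position -103.
Neurog3: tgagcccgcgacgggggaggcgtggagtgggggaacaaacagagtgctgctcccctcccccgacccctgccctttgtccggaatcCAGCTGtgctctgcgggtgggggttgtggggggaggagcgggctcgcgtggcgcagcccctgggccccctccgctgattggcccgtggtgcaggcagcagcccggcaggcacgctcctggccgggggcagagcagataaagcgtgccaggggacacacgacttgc
Neurod1: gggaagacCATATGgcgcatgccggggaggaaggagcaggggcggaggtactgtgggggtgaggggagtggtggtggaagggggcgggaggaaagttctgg
Nkx2-2: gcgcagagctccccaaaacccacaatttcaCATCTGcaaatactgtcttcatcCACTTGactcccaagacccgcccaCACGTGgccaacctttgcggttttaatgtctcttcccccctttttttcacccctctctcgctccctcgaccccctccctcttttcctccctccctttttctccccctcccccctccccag
Isl1: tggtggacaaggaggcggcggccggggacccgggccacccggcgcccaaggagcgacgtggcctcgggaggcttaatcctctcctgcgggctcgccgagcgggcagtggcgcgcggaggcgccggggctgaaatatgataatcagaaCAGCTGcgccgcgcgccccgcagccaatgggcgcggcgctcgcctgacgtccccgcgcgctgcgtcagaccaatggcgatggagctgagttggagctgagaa

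The libraries held 7458616 to 23063124 counts on genes, 32.3% to 80.7% of them on mitochondrial genes. Levels are given as normalised CPM, the count scaled to the TMM-adjusted size of its library. A count of 3, taken as the floor of detection in a library, was worth 0.106 to 0.360 CPM. Amplified reads do not count separate molecules, so this floor and the intervals given with ratios allow for counting error only. *Guca2a* checks the sort, at 104 CPM or more in the 12 positive libraries and 2.67 to 120 CPM in the 12 negative ones, and within each region every positive library was above every negative one. Of the 9 factors, 8 passed the filter on low counts and were tested, while *Pax4* did not pass and is given by its counts and levels.

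Most of the enteroendocrine factors were depleted from Venus-positive cells of the small intestine, whereas in the colon 1 of 8 tested factors was called lower. Averaged over the 4 regions, the 8 tested factors were all lower in positive cells (adjusted p from 1.22e-09 for *Insm1* to 0.00158 for *Etv1*, quasi-likelihood test of edgeR, Benjamini-Hochberg adjustment over 15044 genes), where 32.9% of all genes tested were called lower. By region, 5 of the 8 were called lower in the duodenum against 8.08% of all genes. The jejunum gave 8 against 25.6%, the ileum 6 against 20.6% and the colon 1 against 3.80%. None was called higher in any region. The mitochondrial share of counts was lower in positive cells in the same 3 regions of the small intestine, at 32.3% to 46.6% against 64.6% to 76.4% in duodenum, 47.1% to 60.6% against 61.2% to 78.8% in jejunum and 41% to 55.4% against 64.7% to 70.9% in ileum. It overlapped in colon (68.6% to 77.9% against 65.3% to 80.7%). With nuclear protein-coding genes alone, where *Pax4* also passed the filter, the factors called lower were 5, 9, 7 and 1 in the 4 regions. In bulk sorted cells, fewer cells that express a gene and less RNA of it per cell cannot be told apart. Every negative library was above every positive library for 7 of the 9 factors in duodenum, against 21.0% of all genes tested. All 9 were separate in this way in jejunum (29.9% of all genes), 7 in ileum (30.1%) and 3 in colon (*Pax4*, *Insm1* and *Rfx6*, against 11.9%). The shares cover tested genes only, and of the 8 tested factors 7, 8, 6 and 2 were separate in the 4 regions. Colonic *Pax4* held 3, 9 and 2 counts in negative libraries and 0, 0 and 1 in positive ones. The median log2 fold change of the 8 factors, positive over negative, was -4.73, -5.68, -3.14 and -1.92 in the 4 regions from the duodenum to the colon, against -0.16, -0.28, -0.27 and 0 over all genes tested. With a gene whose positive libraries were all at 0 set to its bound against the floor, the medians of the small intestine became -4.19, -5.17 and -2.44. The shift of the median over all genes depended on the scaling (0.27 in the duodenum with library size alone), and all 8 factors stayed below 0 in each region under each of the 3 scalings tried.

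**Figure D1:**
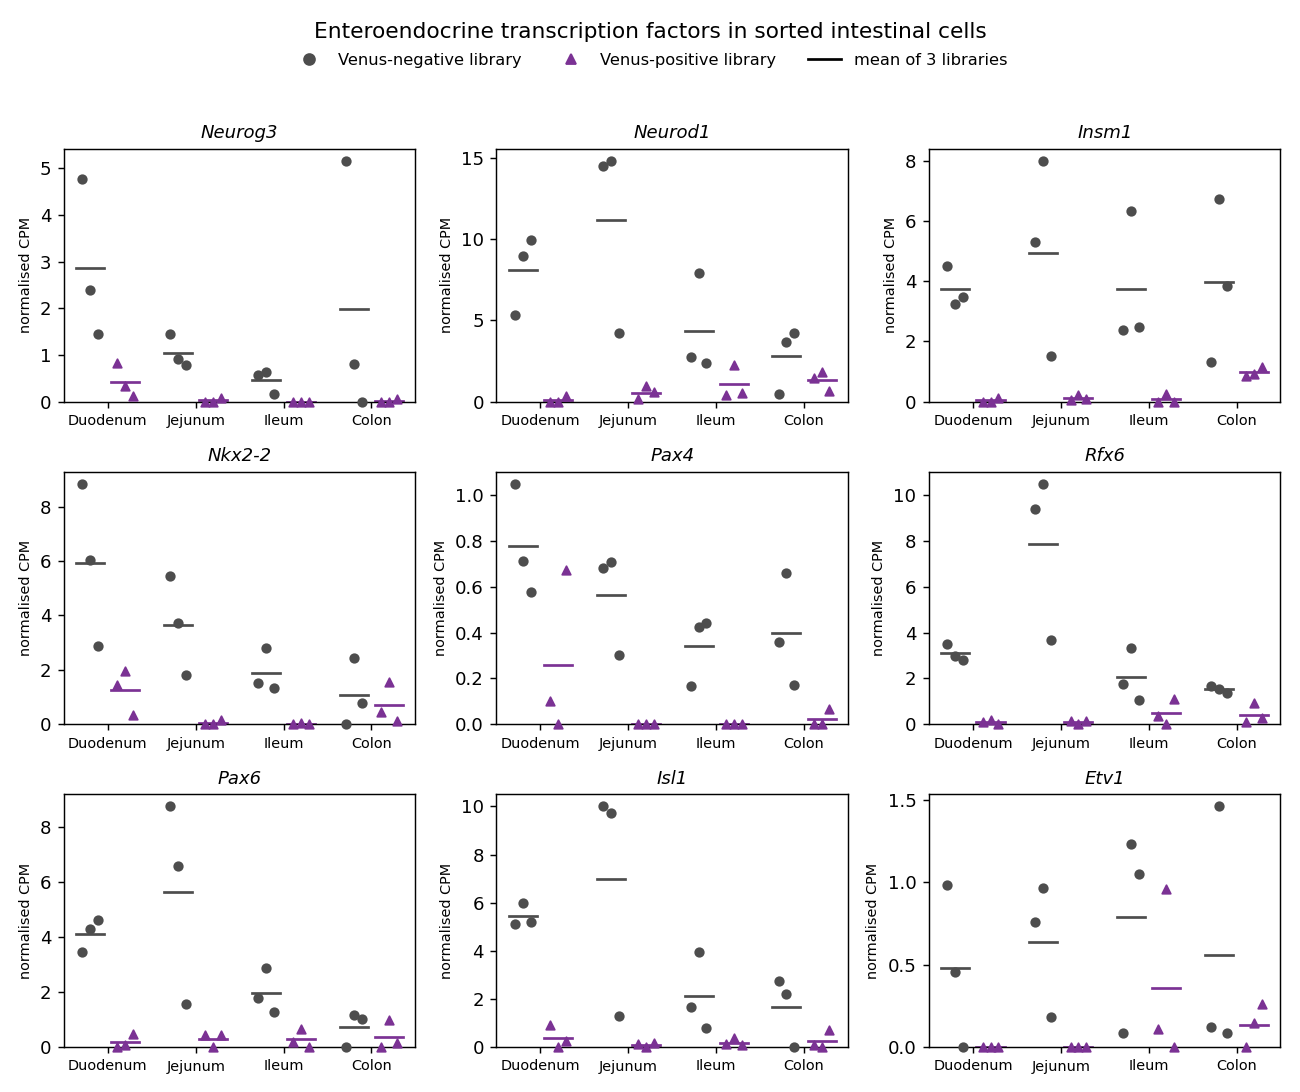
Normalised CPM of each factor (y axis, own scale per panel, starting at 0) in the 3 Venus-negative (grey circles) and 3 Venus-positive (purple triangles) libraries of each region, with bars at the group means. Negative libraries lie above positive ones for 9 of 9 factors in the jejunum and for 3 of 9 in the colon.

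*Neurog3*, the factor that commits progenitors to the endocrine fate, lies on chromosome 10 of GRCm38 from 62133090 to 62134763 on the forward strand, as a single exon (ENSMUSG00000044312). In the duodenum its level was 4.77, 2.40 and 1.44 CPM in the negative libraries and 0.819, 0.328 and 0.113 CPM in the positive ones. The groups did not overlap, but the log2 fold change of -2.75 (standard error 1.21) was not called (adjusted p = 0.118), although a fit of the 6 duodenal libraries alone called it (0.0303). In the jejunum the negative libraries were at 1.44, 0.901 and 0.786 CPM, and the positive libraries together held a single count. The negative to positive ratio was 48.1, with a 95% counting interval from 8.21 to 1940 (exact, over summed counts), and the difference was called (adjusted p = 0.00806). In the ileum the negative libraries were at 0.578, 0.635 and 0.166 CPM and all 3 positive libraries at 0, a level at least 2.45-fold lower than in negative cells against the floor of 3 counts per library (adjusted p = 0.0110). The colon gave a wide spread, with 43, 11 and 0 counts in the negative libraries (5.15, 0.806 and 0 CPM) and 0, 0 and 1 in the positive ones. The ratio there was 68.1 (counting interval 11.7 to 2740), and *Neurog3* was the single factor called in the colon (adjusted p = 0.0104). The groups overlapped, since negative replicate 3 held no count and positive replicate 3 held 1. The call was lost without negative replicate 1 (adjusted p = 0.125), without positive replicate 1 (0.0544) and without positive replicate 2 (0.0666). A stretch of 273 exon bases is shared with *Fam241b* on the opposite strand, and whether the counting used strand was not stated. *Fam241b* was at 2.82 to 3.31 CPM in the positive ileal libraries in which *Neurog3* had no count.

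*Neurod1*, which drives endocrine differentiation after *Neurog3*, lies on chromosome 2 from 79452521 to 79456751 on the reverse strand (ENSMUSG00000034701). Per length it had the highest mean of the 9 in negative cells of the 3 small-intestinal regions, but not in the colon. Negative libraries of the duodenum were at 5.33, 8.95 and 9.95 CPM, while 2 of the 3 positive libraries had no count and the third held 3. The ratio was 83.1 (counting interval 28.2 to 405, adjusted p = 0.000107). In the jejunum the negative libraries were at 14.5, 14.8 and 4.23 CPM and the positive ones at 0.128, 0.948 and 0.583 (log2 fold change -4.30, standard error 0.83, adjusted p = 0.000116). The ileum had 2.76, 7.90 and 2.38 CPM in negative and 0.431, 2.28 and 0.515 in positive libraries, without overlap, although the highest positive library (2.28) came close to the lowest negative one (2.38). The difference was called (log2 fold change -2.01, standard error 0.75, adjusted p = 0.0354), and the call was lost without ileal positive replicate 1 (0.129), positive replicate 3 (0.132) or negative replicate 2 (0.240). In the colon the groups overlapped, with 0.479, 3.66 and 4.25 CPM in negative and 1.47, 1.84 and 0.645 in positive libraries, and no difference was called (log2 fold change -1.11, standard error 0.76, adjusted p = 0.372). *Neurod1* shares 201 exon bases with *Cerkl* on the same strand, a gene that reached at most 3.15 CPM, and 154 with the long non-coding gene *Gm26755* on the opposite strand, so reads in those bases are uncertain.

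*Insm1*, a zinc finger repressor of the endocrine lineage, is a single exon on chromosome 2 from 146221921 to 146225020, forward strand (ENSMUSG00000068154). It was the one tested factor that combined a called difference in every region of the small intestine with separated groups in the colon as well. Negative libraries were at 4.49, 3.24 and 3.46 CPM in the duodenum, where the positive libraries held a single count in all (ratio 115, counting interval 20.3 to 4560, adjusted p = 0.000179). The jejunum had 5.31, 7.98 and 1.51 CPM in negative and 0.0639, 0.223 and 0.0729 in positive libraries (log2 fold change -5.22, standard error 0.93, adjusted p = 3.87e-05). In the ileum the values were 2.39, 6.31 and 2.49 CPM against 0, 0.240 and 0 (log2 fold change -5.38, standard error 0.96, adjusted p = 5.30e-05). Colonic positive cells were different, at 0.850, 0.920 and 1.16 CPM, each above the floor of its library and above every positive library of the small intestine. Colonic negative libraries were at 1.32, 6.74 and 3.83 CPM, and the log2 fold change of -2.02 (standard error 0.76) was not called (adjusted p = 0.0768), although it was called by DESeq2 (0.0263) and without colonic negative replicate 1 (0.0352).

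*Nkx2-2*, a homeodomain factor needed for several hormone-producing fates, lies on chromosome 2 from 147177546 to 147194243 on the reverse strand (ENSMUSG00000027434). In the duodenum it was at 8.84, 6.03 and 2.88 CPM in negative and 1.43, 1.97 and 0.338 CPM in positive libraries. The groups did not overlap, and the log2 fold change of -2.22 (standard error 0.92) was not called (adjusted p = 0.0945), whereas the 6 duodenal libraries fitted alone gave a call (0.0173). In the jejunum negative libraries were at 5.46, 3.73 and 1.81 CPM, and the positive libraries held 2 counts together (ratio 83.6, counting interval 22.8 to 696, adjusted p = 0.000201). The ileum was alike, with 1.53, 2.79 and 1.33 CPM in negative libraries and 1 count in all positive ones (ratio 96.7, counting interval 17.1 to 3850, adjusted p = 0.000604). In the colon the groups lay within each other, at 0, 2.42 and 0.765 CPM in negative and 0.464, 1.56 and 0.129 CPM in positive libraries. The log2 fold change there was -0.61 (standard error 0.94, adjusted p = 0.733) and became 0.70 without negative replicate 2. *Nkx2-2os*, an antisense transcript that shares 278 exon bases, had at most 5 counts in any library.

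*Pax4*, a paired-box factor linked with serotonin and somatostatin cells among others, lies on chromosome 6 from 28442334 to 28449353 on the reverse strand (ENSMUSG00000029706). It reached at most 1.05 CPM. In negative cells it had at least 1 count in all 12 libraries, of which 2, both colonic, held 3 or fewer. Its level was 1.05, 0.713 and 0.577 CPM in the duodenum and 0.683, 0.708 and 0.302 CPM in the jejunum. Ileal negative libraries were at 0.165, 0.423 and 0.443 CPM and colonic ones at 0.360, 0.659 and 0.170. No positive library of the jejunum or ileum held a count, which put its level there at least 2.93-fold and 1.83-fold lower against the floor. Positive libraries of the colon held a single count (ratio 17.7, counting interval 2.69 to 746). In the duodenum the groups overlapped, because positive replicate 3 held 6 counts (0.675 CPM) beside 1 and 0 in the others. *Pax4* fell below the filter and has no adjusted p here. Under other settings that kept all libraries and tested it, *Pax4* was called lower in the jejunum (DESeq2, no filter, and nuclear protein-coding genes alone). In the ileum it was called with DESeq2 and with nuclear protein-coding genes alone. Some fits without 1 library also called it lower in the jejunum, where up to 9 factors were then called.

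*Rfx6*, a winged-helix factor of endocrine cells in gut and pancreas, lies on chromosome 10 from 51677756 to 51730432 on the forward strand (ENSMUSG00000019900). Its highest levels were in the jejunum, at 9.41, 10.5 and 3.69 CPM in negative against 0.128, 0 and 0.146 CPM in positive libraries, with the lowest adjusted p of any factor in a single region (log2 fold change -6.37, standard error 1.07, adjusted p = 2.00e-05). In the duodenum negative libraries were at 3.51, 2.98 and 2.81 CPM and the positive libraries held 3 counts together (ratio 31.9, counting interval 10.7 to 156, adjusted p = 0.00218). The ileum had 1.77, 3.35 and 1.05 CPM in negative and 0.377, 0 and 1.10 CPM in positive libraries, so the groups overlapped by 1 library. The log2 fold change of -2.09 (standard error 0.86) missed the threshold (adjusted p = 0.0536) and passed it with DESeq2 (0.0319) and without positive replicate 3 (0.0136), negative replicate 3 (0.0453) or colonic negative replicate 1 (0.0476). In the colon the negative libraries were close together, at 1.68, 1.54 and 1.36 CPM, and above the positive ones at 0.0773, 0.920 and 0.258, with a log2 fold change of -1.84 (standard error 0.88) that was not called (adjusted p = 0.178).

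*Pax6*, which acts in differentiating hormone cells including those that make glucagon gene products, lies on chromosome 2 from 105668900 to 105697364 on the forward strand (ENSMUSG00000027168). In the duodenum it was at 3.44, 4.28 and 4.61 CPM in negative and 0, 0.0821 and 0.450 in positive libraries (log2 fold change -4.55, standard error 1.27, adjusted p = 0.0134). In the jejunum the values were 8.73, 6.56 and 1.57 CPM against 0.447, 0 and 0.438 (log2 fold change -4.25, standard error 1.17, adjusted p = 0.00410). In the ileum they were 1.77, 2.86 and 1.27 CPM against 0.162, 0.661 and 0 (log2 fold change -2.78, standard error 1.12, adjusted p = 0.0494). The groups were separate in all 3 regions of the small intestine, but the ileal call stood at the threshold and was lost under 13 of 32 alternatives, with adjusted p up to 0.160. The duodenal call was lost without positive replicate 1 (0.0691) or positive replicate 2 (0.0585). In the colon the libraries overlapped, at 0, 1.17 and 1.02 CPM in negative and 0, 0.991 and 0.129 CPM in positive cells (log2 fold change -1, standard error 1.13, adjusted p = 0.625).

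*Isl1*, a LIM-homeodomain factor of maturing endocrine cells, lies on chromosome 13 from 116298281 to 116309689 on the reverse strand (ENSMUSG00000042258). Duodenal negative libraries agreed closely, at 5.12, 5.97 and 5.19 CPM, and the positive ones were at 0.922, 0 and 0.225 (log2 fold change -3.84, standard error 1.15, adjusted p = 0.0209). This call was lost without positive replicate 2 (0.0839) or positive replicate 3 (0.0683). The jejunum had the largest fitted difference, with 10.0, 9.71 and 1.27 CPM in negative and 0.128, 0 and 0.146 CPM in positive libraries (log2 fold change -6.20, standard error 1.32, adjusted p = 0.000327). A joint edgeR test of the difference over the 4 regions did not call *Isl1* (adjusted p = 0.413). Ileal libraries were at 1.65, 3.95 and 0.776 CPM against 0.108, 0.361 and 0.0736 (log2 fold change -3.49, standard error 1.16, adjusted p = 0.0179), again without overlap, and the call was lost without positive replicate 1 (0.0611), positive replicate 3 (0.0694) or negative replicate 2 (0.0893). In the colon the negative libraries were at 2.76, 2.20 and 0 CPM and the positive ones at 0.0773, 0 and 0.710, which overlapped and was not called (log2 fold change -2.56, standard error 1.14, adjusted p = 0.142). Without colonic positive replicate 3 it moved to -5.17 and was called (adjusted p = 0.0385), as it was with no filter (0.0327).

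*Etv1*, an ETS factor, lies on chromosome 12 from 38779380 to 38870484 on the forward strand (ENSMUSG00000004151) and was the lowest of the 9 per length. It was present in few counts, with 5 of the 12 negative and 10 of the 12 positive libraries at 3 counts or fewer. Negative libraries of the duodenum were at 0.982, 0.454 and 0 CPM and those of the jejunum at 0.759, 0.965 and 0.181, and no positive library of either region held a count. Duodenal negative replicate 3 held none either, so the groups touched there, whereas those of the jejunum were separate. Against the floor the positive level was at least 1.61-fold lower in the duodenum (adjusted p = 0.0909) and at least 3.30-fold lower in the jejunum (adjusted p = 0.0211). The jejunal call was lost without any 1 of the positive replicates (0.0630, 0.0693 and 0.0517 without replicates 1, 2 and 3). In the ileum, negative libraries were at 0.0825, 1.23 and 1.05 CPM and positive ones at 0.108, 0.961 and 0, so the groups overlapped (adjusted p = 0.582). The colon had 0.120, 1.46 and 0.0850 CPM in negative and 0, 0.142 and 0.258 CPM in positive libraries (adjusted p = 0.460).

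The size of the depletion depended on the region for 4 of the 8 tested factors. A joint test of the difference between positive and negative cells over the 4 regions called *Neurod1* (adjusted p = 0.0155), *Nkx2-2* (0.0198), *Rfx6* (0.0337) and *Insm1* (0.0444), against 17.5% of all genes (edgeR). The difference was smaller in the colon than on average in the small intestine by 4.19 on the log2 scale for *Nkx2-2* (standard error 1.19, adjusted p = 0.0409) and by 3.68 for *Insm1* (standard error 0.97, adjusted p = 0.0271). These were 2 of 8 factors, against 4.13% of all genes. *Neurod1* gave 3.07 (standard error 0.93) and missed the threshold (adjusted p = 0.0557), which it passed with DESeq2, with no filter and with the i5 index (a library barcode) as covariate. Scaling by library size alone left *Insm1* in this contrast and *Neurod1* and *Nkx2-2* in the joint test, and *Insm1* was also lost from the joint test with RLE scaling or a mean of at least 10 counts. Such fitted sizes rest partly on positive groups with 1 or 2 counts and are not bounds. The colonic libraries decided these calls: neither gene remained called against the small intestine without colonic negative replicate 1, negative replicate 3 or positive replicate 2, and without the last of these *Neurod1* alone was called in the joint test.

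Among positive cells, 8, 7, 7 and 9 of the 9 factors had at least 1 count in the duodenum, jejunum, ileum and colon. The joint test over the positive groups called *Nkx2-2* (adjusted p = 0.00127), *Insm1* (0.00131), *Neurog3* (0.0182) and *Neurod1* (0.0386). These were 4 of 8 tested factors, near the 43.3% called among all genes. In the duodenum, *Nkx2-2* (41 counts summed over the positive libraries), *Neurog3* (13) and *Isl1* (11) were followed by *Pax4* (7), *Pax6* (5), *Neurod1* and *Rfx6* (3 each) and *Insm1* (1). In the jejunum, *Neurod1* (27 counts) and *Pax6* (13) led, and the other detected factors had 1 to 6. Ileal positive cells had 53 counts of *Neurod1*, 22 of *Rfx6*, 18 of *Etv1*, 14 of *Pax6*, 9 of *Isl1*, 4 of *Insm1* and 1 of *Nkx2-2*, of which 38 of the *Neurod1* and 16 of the *Etv1* counts came from replicate 2. Colonic positive cells held *Neurod1* (55 counts), *Insm1* (42), *Nkx2-2* (30), *Rfx6* (18), *Pax6* (16), *Isl1* (12) and *Etv1* (6), with 1 count each of *Neurog3* and *Pax4*. In a model of the 12 positive libraries alone, in which 2 of the factors passed the filter, *Nkx2-2* remained called.

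**Figure D2:**
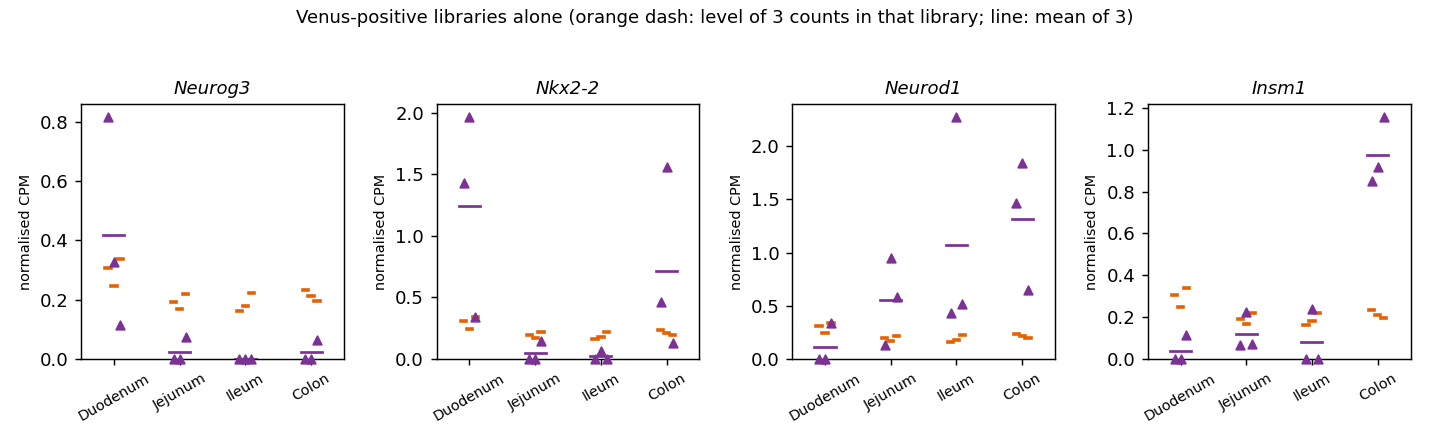
Normalised CPM (y axis, from 0) of the 4 factors called among regions in positive cells, for the 3 Venus-positive libraries of each region (triangles) with their mean (line) and the level of 3 counts in each library (orange dash). *Neurog3* is highest in the duodenum (0.113 to 0.819 CPM), where its lowest library lies under the level of 3 counts. *Nkx2-2* lies at 0.338 to 1.97 CPM in the duodenum and overlaps this range in the colon (0.129 to 1.56 CPM). *Insm1* is highest in the colon, where its 3 libraries lie between 0.850 and 1.16 CPM.

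Among negative cells the factors were found throughout the gut, and no factor was called as different between regions. The joint test over the 4 regions called 0 of 8 with edgeR, against 12.3% of all genes, and 0 with DESeq2, while 2 had an unadjusted p under 0.05 (*Rfx6*, 0.0225, and *Neurod1*, 0.0479). All 6 pairs of regions also gave 0 calls in the edgeR model of all libraries, where 0.725% of all genes were called between duodenum and jejunum, 4.40% between duodenum and ileum, 11.2% between duodenum and colon, 2.11% between jejunum and ileum, 10.5% between jejunum and colon and 5.24% between ileum and colon. At an unadjusted p under 0.05 these pairs gave 0, 1, 3, 1, 4 and 0 factors, and DESeq2 called *Rfx6* between jejunum and colon alone. Other edgeR settings gave calls in some pairs, with *Neurod1* and *Pax6* between jejunum and colon with no filter or with the i5 covariate, *Rfx6* in that pair with those libraries alone, and *Neurog3* and *Nkx2-2* between duodenum and ileum with those libraries alone. A model of the negative libraries alone called *Rfx6* among the 4 regions. Mean levels of *Neurod1* had the order jejunum (11.2 ± 6.01 CPM, SD, n = 3), duodenum (8.08 ± 2.43), ileum (4.35 ± 3.08) and colon (2.80 ± 2.03), and neighbours in this order differed by less than the larger SD of each pair, except duodenum and ileum. *Pax6* had the same order, at 5.62 ± 3.67, 4.11 ± 0.606, 1.97 ± 0.809 and 0.731 ± 0.637 CPM. *Insm1* was nearly level along the gut, and its difference between duodenum and ileum was 0 on the log2 scale (standard error 0.71). The wide standard errors, from 0.70 to 1.49 over all factors and pairs, leave differences of several-fold undetected at this number of libraries.

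Per kilobase of exon, mean levels over the 12 negative libraries were 2.42 ± 1.71 CPM per kb (SD, n = 12) for *Neurod1*, 1.32 ± 0.685 for *Insm1*, 1.09 ± 0.880 for *Nkx2-2*, 1.02 ± 0.833 for *Isl1*, 0.950 ± 1.01 for *Neurog3* and 0.907 ± 0.771 for *Rfx6*. *Pax4* (0.361 ± 0.180), *Pax6* (0.266 ± 0.220) and *Etv1* (0.0463 ± 0.0391) were lower. The gap between neighbours in this order did not exceed the larger SD of the pair. The order changed with the region. In duodenum *Nkx2-2* (2.06 CPM per kb) and *Neurog3* (1.71) had higher means than *Insm1* (1.20), and in jejunum *Rfx6* (1.96) came after *Neurod1* (4.10). In colon *Insm1* (1.28) and *Neurog3* (1.19) were above *Neurod1* (1.03), by less than the SD of each. Exon lengths were merged over all annotated transcripts (1445 bases for *Pax4*, 11694 for *Pax6* and 13296 for *Etv1*), which lowers the value per kb of genes with long alternative exons.

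Summed over the 9 factors, negative libraries held 30.9 to 37.5 CPM in duodenum, 15.4 to 56.3 in jejunum, 11 to 29.4 in ileum and 11.5 to 20.7 in colon. Positive libraries held 2.25 to 3.38, 0.895 to 1.60, 1.18 to 4.57 and 2.94 to 6.37 CPM, so the sums did not overlap in any region. *Chga*, the granule protein chromogranin A that is made by many enteroendocrine cells, was at 161 to 212, 73.3 to 290, 42.7 to 118 and 123 to 251 CPM in the negative and 2.36 to 12.3, 4.86 to 16.8, 5 to 9.13 and 44.1 to 104 CPM in the positive libraries. Its log2 fold changes were -4.57, -4.13, -3.74 and -1.53, each called (largest adjusted p 0.0405). Jejunal negative replicate 3 was low in both, at 15.4 CPM for the factors against 56.3 and 55.8, and at 73.3 CPM for *Chga* against 260 and 290. As a percentage of the *Chga* level, the factors summed to 21.7, 19.2 and 21.0 in the jejunal negative libraries and 17.7, 19.5 and 19.2 in the duodenal ones. The ileal negative libraries were at 11.1, 24.9 and 25.7. Colonic negative libraries held less of the factors relative to *Chga*, at 4.72, 10.8 and 9.35, below all 9 negative libraries of the small intestine. In positive libraries this percentage was 40.2, 20.7 and 95.2 in duodenum, above the negative ones, and 18.4, 6.98 and 11.5 in jejunum, below them. It was 18.3, 50 and 33.8 in ileum and 6.11, 6.15 and 7.76 in colon, where the groups overlapped.

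**Figure D3:**
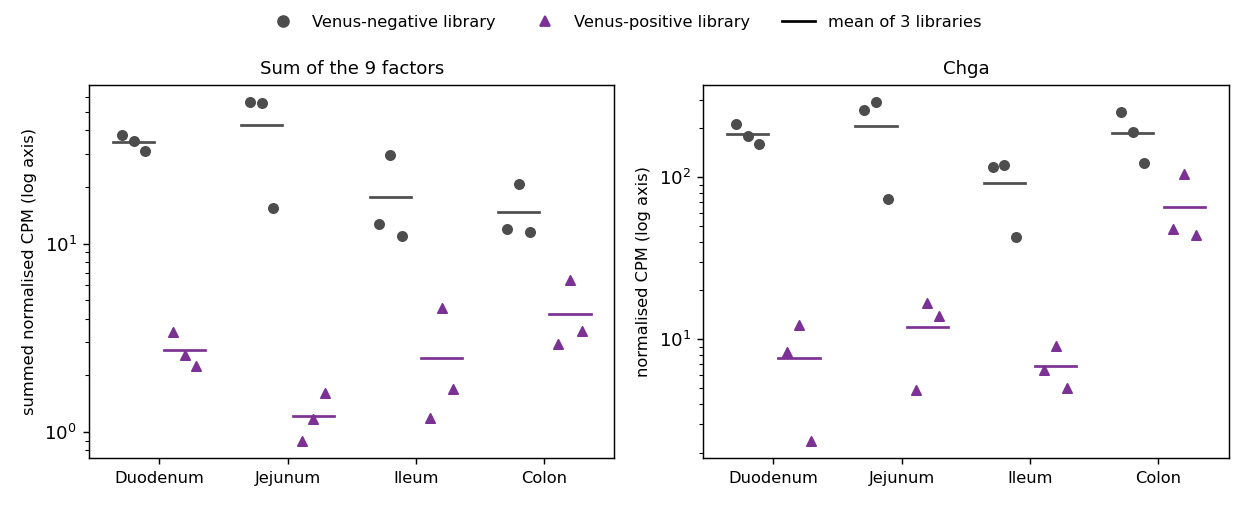
Summed normalised CPM of the 9 factors (left) and normalised CPM of *Chga* (right) per library on log axes, for Venus-negative (grey circles) and Venus-positive (purple triangles) cells with bars at the mean of 3 libraries. Factor sums in negative cells are lower in the colon (11.5 to 20.7) than in the duodenum (30.9 to 37.5), while *Chga* in negative cells spans similar values in both.

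Within the negative groups, the factors did not all vary together from library to library. Deviations of log2 CPM (prior count 2) from the mean of each region were compared over the 12 negative libraries, as a description. The libraries share the kit, the sort and the group means, and each group leaves only 2 free deviations. *Neurod1* and *Pax6* moved closely together (Pearson r = 0.96, Spearman rho = 0.94), as did *Pax6* and *Insm1* (0.88 and 0.82) and *Neurod1* and *Insm1* (0.87 and 0.81). *Neurog3* went with *Isl1* (0.78 and 0.66) and against *Neurod1* (-0.54 and -0.15) and *Pax6* (-0.51 and -0.17). The opposite course of *Neurog3* rested on the colon. Colonic negative replicate 1 held 43 counts of *Neurog3* and 23 of *Isl1* but 4 of *Neurod1* and none of *Pax6* or *Nkx2-2*, whereas replicate 3 held 50 counts of *Neurod1* and 12 of *Pax6* but none of *Neurog3* or *Isl1*. Without the colon, over 9 libraries, r was 0.20 for *Neurog3* with *Neurod1*, 0.35 with *Pax6* and 0.49 with *Isl1*, and *Neurod1* and *Isl1*, at 0.03 over all 12, reached 0.92. These colonic libraries were the shallowest of the 12, with 9255295 and 10659415 counts on genes against 15086863 to 23063124 in the other 10. A count of 3 was worth 0.360 and 0.255 CPM in them and at most 0.228 CPM elsewhere, and the part of depth in the zeros was not tested.

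**Figure D4:**
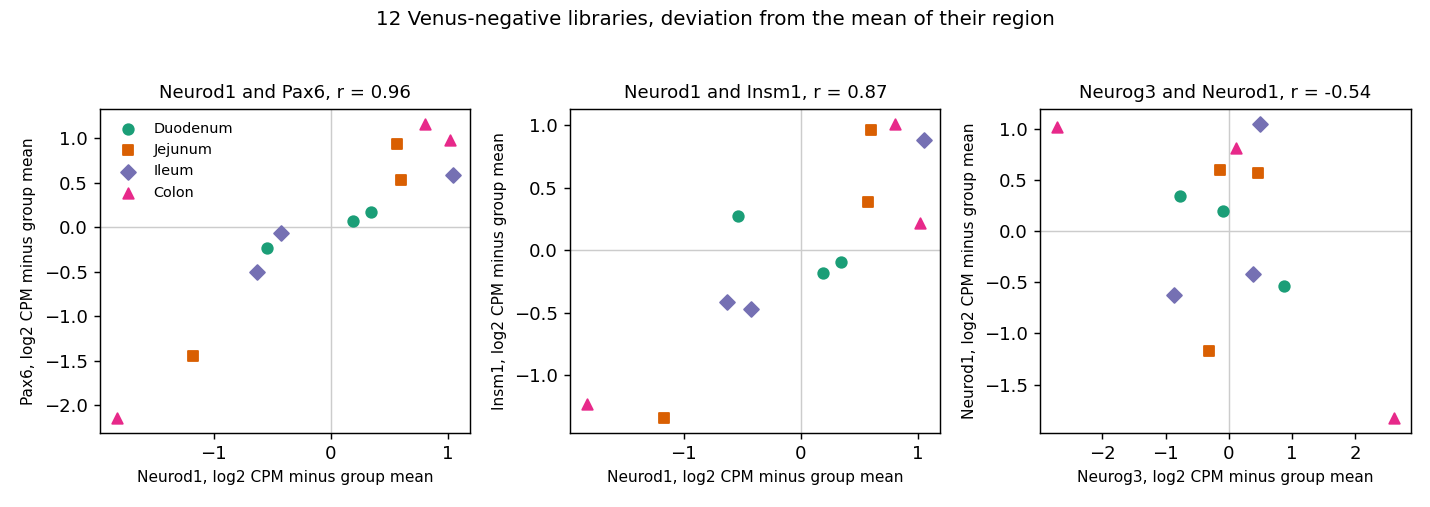
Log2 CPM of a factor minus the mean of its region in the 12 Venus-negative libraries, for 3 pairs of factors, with colour and shape by region. *Neurod1* and *Pax6* lie along a line (r = 0.96), and the negative r of *Neurog3* with *Neurod1* (-0.54) comes from the colonic libraries at the far left and far right.

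Over all 24 libraries, the genes whose log2 CPM followed each factor most closely are given as a description, since libraries of a group are not independent and many enteroendocrine genes differed between the sorts. *Insm1* was followed by *Rimbp2* (r = 0.950), *Chgb* (0.932, chromogranin B) and *St18* (0.923). *Neurod1* was followed by the potassium channel gene *Kcnc1* (0.901), *Myt1* (0.901) and *Baiap3* (0.896). *Pax6* was followed by *Myt1* (0.891), *Stxbp5l* (0.890) and *Adcy1* (0.890), and *Rfx6* by *Scg5* (0.900), *Gng4* (0.894) and *Baiap3* (0.893). *Neurog3* and *Isl1* shared *Fxyd6* as nearest gene (0.910 and 0.921) and were in each other's list (0.851), with *Tenm3* (0.838) for the first and *Ucn3* (0.844), a peptide hormone gene, for the second. *Nkx2-2* was nearest to *Gm6043* (0.904), *Malsu1* (0.897) and *Hist1h2bh* (0.888), and *Etv1* had no gene above 0.772 (*BC051077*, then *Gm48369* at 0.756 and *Hist1h4i* at 0.755).

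Other transcription factors described in enteroendocrine cells followed in part. Of 12 such genes 11 were tested, and 3, 8, 5 and 2 were called lower in positive cells of the duodenum, jejunum, ileum and colon, against 8.08%, 25.6%, 20.6% and 3.80% of all genes. Their median log2 fold changes were -1.07, -3.23, -1.82 and -1.41, against -0.16, -0.28, -0.27 and 0 over all genes. The zinc finger genes *Myt1* (mean log2 fold change -4.46, adjusted p = 6.97e-08) and *St18* (-3.81, adjusted p = 1.29e-07) fell most, with *Lmx1a* (-3.06, adjusted p = 1.91e-05), a factor of serotonin cells, and *Sox4* (-2.86, adjusted p = 1.87e-13), which acts around endocrine commitment. *Sox4* was called lower in all 4 regions. In the duodenum 2 genes of this list were higher in positive cells, the forkhead factors *Foxa1* (0.88, adjusted p = 0.0481) and *Foxa2* (1.66, adjusted p = 0.0235), and *Foxa2* was lower in the jejunum (-2.60, adjusted p = 0.000534).

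Hormone and granule genes were lower in positive cells in part. Of 10 hormone genes, 8, 9, 5 and 4 were called lower in the 4 regions, against 8.08%, 25.6%, 20.6% and 3.80% of all genes (medians -4.71, -3.83, -0.99 and -1.68, or -4.47, -4.24, -0.99 and -1.33 with genes at 0 set to their bound or left out). *Sst* (somatostatin, mean log2 fold change -4.46, adjusted p = 4.05e-13), *Gcg* (glucagon and GLP-1, -3.73, adjusted p = 3.69e-11), *Gip* (-3.64, adjusted p = 2.03e-10) and *Cck* (-3.57, adjusted p = 1.45e-09) led the list. In the ileum *Ghrl* (ghrelin, 2.02, adjusted p = 0.0538), *Sct* (secretin, 0.96, adjusted p = 0.0812) and *Pyy* (peptide YY, 0.14, adjusted p = 0.880) were among those not called. *Nts*, which encodes neurotensin, was higher in colonic positive cells (2.04, adjusted p = 0.0298). Of 11 granule and serotonin genes, 9, 9, 7 and 5 were called lower (medians -4.11, -3.80, -2.08 and -1.53, with -2.94 in the duodenum at the bounds). *Chgb* (-3.94, adjusted p = 5.09e-12), *Scg2* (-3.54, adjusted p = 4.10e-10) and *Chga* (-3.49, adjusted p = 1.22e-11) fell most, with *Scg5* (adjusted p = 2.53e-08), for which no mean fold is given because the duodenal positive libraries were all at 0.

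Of 6 genes of secretory progenitors and Notch signalling, 5, 4, 4 and 3 were called higher in positive cells of the 4 regions and 0, 1, 1 and 0 lower (medians 4.34, 1.74, 2.39 and 1.06), against 8.88%, 18.3%, 17.9% and 9.31% of all genes tested. *Atoh1*, which opens the secretory fate, rose by a mean of 3.51 on the log2 scale (adjusted p = 1.21e-11), *Gfi1* by 3.19 (adjusted p = 1.73e-07) and *Spdef*, a goblet and Paneth factor, by 3.01 (adjusted p = 2.56e-11). *Dll4*, a Notch ligand, rose by 1.75 (adjusted p = 1.35e-09). *Hes1*, the Notch target that represses *Atoh1*, was lower in positive cells of the jejunum (-1.26, adjusted p = 0.00433) and ileum (-2.03, adjusted p = 4.52e-05). *Atoh1* was highest relative to negative cells in the duodenum (6, adjusted p = 1.67e-08).

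Markers of other cells moved beside these differences, and their part in them was not tested. The marker counts stand against 8.88%, 18.3%, 17.9% and 9.31% of all genes called higher, and 8.08%, 25.6%, 20.6% and 3.80% called lower, from duodenum to colon. All 7 goblet markers were called higher in positive cells of every region, and the 5 Paneth markers in the 3 regions of the small intestine. Summed goblet markers were at 53000 to 60400 CPM in duodenal positive and 309 to 433 in duodenal negative libraries, and at 4040 to 4950 and 922 to 1840 in colonic ones. All 7 enterocyte markers were called higher in jejunal and ileal positive cells and 2 in colonic ones, while duodenal positive cells had 1 higher and 2 lower. Of 4 stem cell markers 1, 4, 4 and 2 were called lower from duodenum to colon, and of 5 proliferation markers 3, 5, 5 and 3. Tested tuft markers, of another sensory cell of the epithelium, were lower in 3, 4 and 4 of 4 in the small intestine and 0 of 4 in the colon. Several of these factors are also made by neurons. Enteric neuron markers summed to 1.57 to 6.30 CPM in negative and 0.575 to 4.99 CPM in positive libraries, and the sums were separate in duodenum (2.07 to 5.41 against 0.575 to 1.13) and in colon (3.60 to 4.76 against 0.991 to 2.71). Of 3 tested neuron markers, *Snap25*, a gene of vesicle release that endocrine cells also use, was called lower in the duodenum (adjusted p = 0.00249, all positive libraries at 0) and jejunum (-4.28, adjusted p = 0.00202), and the others in no region. Glial markers reached at most 0.631 CPM in sum. Of the 4 fibroblast markers 2 were called lower in ileal positive cells, of 4 tested T and B cell markers 2 in the jejunum, and of 2 tested markers of Cajal and smooth muscle cells 1 was lower in the jejunum and 1 higher in the duodenum. The 1 endothelial marker tested was called in no region.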

How the data were processed

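Total RNA libraries (SMARTer stranded pico kit, single-end reads) were made from sorted cells, 3 per region and sort and 24 in all. The authors deposited raw counts per gene; the submitters' processing notes name CASAVA, STAR 2.5.1 and the build GRCm38. The annotation and the strand setting of the counting are not given in the sources used here. Each library had 7458616 to 23063124 counts on 53465 genes, of which 53274 had a GENCODE M21 entry that gave exon lengths and coordinates. The 4 summary lines of unassigned reads (39.4% to 75.8% of reads, median 52.3%) were left out, and 0 columns of the table lacked a sample.

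The filterByExpr rule (minimum count 10, total 15) kept 15044 genes, which were scaled by TMM and fitted with edgeR 4.0.16 (limma 3.58.1, R 4.3.3) as 8 group means. Quasi-likelihood tests compared positive with negative cells in each region and on average, and that difference between regions. Regions were also compared within each sort, all at an adjusted p (Benjamini-Hochberg) under 0.05. Standard errors of log2 fold changes were worked back from these tests, as the absolute fold change over the square root of the F statistic. They are approximate and least reliable where a group held few or no counts. Ratios with 1 to 3 counts in the positive libraries carry an exact 95% interval of the summed counts, and groups at 0 were set against 3 counts per library. Correlations used log2 CPM with a prior count of 2. The steps were tested on simulated data. Alternatives were DESeq2 1.42.0, RLE or library size scaling, a mean of at least 10 counts or no filter, nuclear protein-coding genes alone, the i5 index as covariate, the compared libraries alone, and leaving out each library in turn.

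The factors, the further lists and the tests were chosen with earlier results of these data known. All 9 factors, the 3 genes closest to each over 24 libraries and up to 4 genes per list with the largest mean fold change are named by rule. *Foxa1*, *Foxa2*, *Nts*, *Ghrl*, *Sct*, *Pyy*, *Hes1*, *Snap25* and the genes that share exons were named after their values were seen.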

Additional observations from a re-analysis of the deposited data

Results flagged for a closer look

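The difference between Venus-positive and Venus-negative cells varied among the 4 regions for 4 factors by the joint edgeR test, with adjusted p values of 0.0155 for *Neurod1*, 0.0198 for *Nkx2-2*, 0.0337 for *Rfx6* and 0.0444 for *Insm1*. None of them was called in the colon, and the colonic fold change of *Nkx2-2* changed sign without colonic negative replicate 2. The contrast of the colon with the mean of the small intestine passed the threshold for *Nkx2-2* (adjusted p = 0.0409) and *Insm1* (adjusted p = 0.0271). *Nkx2-2* lost this call with scaling by library size alone, and both lost it without colonic negative replicate 1, negative replicate 3 or positive replicate 2. In positive cells *Insm1* was at 0.850 to 1.16 CPM in the colon and at most 0.240 CPM in the small intestine, while *Nkx2-2* was at 0.129 to 1.56 CPM in the colon and 0.338 to 1.97 CPM in the duodenum. The part of other cells in these differences was not tested.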

How the results depend on the processing

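Under the alternatives that kept all libraries, 105 of 117 counts of called factors stayed within 1.5 times the reported count and 295 of 302 results for single factors kept direction and call. For the colon (reported count 1), DESeq2 gave 2 (adding *Insm1*), no filter gave 2 (adding *Isl1*) and the compared libraries alone gave 0, since *Neurog3* did not pass the filter of that fit. Scaling by library size alone gave 2 in the joint test by region (*Neurod1* and *Nkx2-2*) and 1 for the colon against the small intestine (*Insm1*). With the compared libraries alone, 7 factors were called in the duodenum in place of 5 (adding *Neurog3* and *Nkx2-2*), 1 factor was called among negative regions (*Rfx6*), 1 among positive regions (*Nkx2-2*) and 2 between duodenal and ileal negative cells (*Neurog3* and *Nkx2-2*). Between jejunal and colonic negative cells, DESeq2 and the compared libraries alone gave 1 (*Rfx6*), and no filter and the i5 covariate gave 2 (*Neurod1* and *Pax6*). The cause was not tested. The mean over regions, the joint test by region and the colon contrast have no value from the compared libraries alone.

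Without 1 library, 336 of 360 counts stayed within 1.5 times and 926 of 960 single results kept direction and call. The number of factors called lower ranged from 3 to 5 in the duodenum (3 without positive replicate 2), 8 to 9 in the jejunum, 3 to 8 in the ileum (3 without positive replicate 1), 0 to 2 in the colon (0 without positive replicate 1 or 2) and 8 to 9 on average. It ranged from 1 to 4 in the joint test, 0 to 3 for the colon contrast, 3 to 6 among positive regions, 0 to 0 among negative regions, 0 to 1 for duodenum against colon (*Nkx2-2*, without colonic negative replicate 2) and jejunum against colon (*Rfx6*, without ileal positive replicate 2), and 0 to 0 for the other pairs. The colonic log2 fold change ranged from -1.93 to 0.70 for *Nkx2-2* and from -2.84 to 0.34 for *Etv1*, with the positive values without colonic negative replicate 2 (adjusted p = 0.737 and 0.949). No paired analysis was made, because the labels give neither replicate numbers nor the mouse of a library. Low counts and 3 libraries per group limit what could be detected, including for *Pax4*, *Etv1* and the colon.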
